A study of Mus musculus with 4 samples.

Results

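The 7 genes described here, Lin28a, Myc, Mycn, Bmi1, Ezh2, Esrrb and Sall4, are regulators of self-renewal that were taken by name. They were chosen with earlier results of these data known. Every probe on the array that carries one of these names was kept, which gave 10 probes of 55681, and the array holds 36282 gene or transcript names in all. Lin28a, Myc, Mycn, Ezh2 and Esrrb have 1 probe each, Bmi1 has 2 and Sall4 has 3. RNA came from the submandibular gland, a major salivary gland, of C57BL/6 mice aged 8 to 10 weeks. Freshly isolated cells were sorted by flow cytometry into stem cells and non-stem cell epithelia, and each group was measured on 2 one-colour arrays. Which markers defined the sort is not given in the sources used here. The labels name no genotype or treatment other than the sort, and they do not say whether replicates are separate animals or separate sorts of one pool. The p-values therefore cover only the spread among these arrays, and that spread may be technical. The comparison asks which self-renewal regulators differ in RNA level between the stem cells of this gland and its other epithelial cells.

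LIN28A is an RNA-binding protein of embryonic and germ cells that binds the terminal loop of let-7 precursors and blocks their maturation, and let-7 microRNAs in turn repress Lin28a, Myc and other growth genes. MYC and MYCN are transcription factors that pair with MAX at E-box sequences and drive ribosome assembly, metabolism and cell division. BMI1 is a subunit of Polycomb repressive complex 1 (PRC1) and keeps the Cdkn2a locus silent in adult stem cells, while EZH2 is the methyltransferase of Polycomb repressive complex 2 (PRC2) that places the repressive mark H3K27me3. ESRRB and SALL4 belong to the transcription factor network of mouse embryonic stem cells, and Lin28a, Myc and Esrrb have been used with other factors to reprogram somatic cells.

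The sequences that carry the measurements are given first, because each RNA was read through a 60-base probe and nothing outside that probe was seen. The Lin28a probe lies on the minus strand of chromosome 4 at 133559245 to 133559304 (mm9), from base 3420 of the transcript that the array annotation assigns to it. Of its 60 bases, 30 are shown, at chr4:133559262-133559291, with capitals on AATAAA, the letters of the common polyadenylation hexamer. The hexamer, searched on the probe strand, stands in 10.1% of all 60-base probes of the array and in 2 of the 10 member probes, those of Lin28a and Esrrb.
Lin28a: cttccctgggaaAATAAAgacttattggta
The Myc probe, on the plus strand at chr15:61821417-61821476 (mm9), spans the end of the coding sequence, and its capitals mark the stop codon of the Myc reading frame.
Myc: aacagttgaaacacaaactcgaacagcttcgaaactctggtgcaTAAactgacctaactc
For Sall4, whose probes did not read alike, 2 of the 3 probes are shown, both on the minus strand of chromosome 2 (mm9). The first, at chr2:168578172-168578231, is assigned by the array to 3 RefSeq transcripts and was above background on every array. The second, at chr2:168580437-168580496, is assigned to 1 transcript variant and was above background on none.
Sall4 first probe: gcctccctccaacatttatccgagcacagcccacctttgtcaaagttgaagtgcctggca
Sall4 second probe: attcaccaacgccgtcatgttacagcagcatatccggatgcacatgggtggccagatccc

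The mature let-7 microRNAs that LIN28A controls were not measured by any probe named for them, so only their sequences can be given, as a reference for the Lin28a result. In the RefSeq microRNA table for GRCm38.p6, all 8 of the 8 let-7 5p names carry the same seed, and 9 of the 11 let-7 hairpins have the letters GGAG, the motif LIN28A recognises, between their arms. The forms below stand for the family, with the seed (bases 2 to 8) in capitals.
let-7a-5p: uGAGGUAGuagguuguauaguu
let-7g-5p: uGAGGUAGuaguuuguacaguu
let-7d-5p: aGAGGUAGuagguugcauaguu

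The 4 arrays lay on 1 slide and were read at 1 scan time. The 75th percentile of the signal over probes was 30.4 and 43.3 on the arrays of stem cells against 74.8 and 63.0 for non-stem cell epithelia, so each array's values were set relative to its own percentile before the groups were compared. From 35.7% to 42.3% of the spots were well above background, and none was saturated. Arrays correlated across genes at 0.986 and 0.992 within the groups and at 0.923 to 0.935 between them. Of 17362 genes tested with limma, 2454 were higher in stem cells (14.1%) and 2919 were lower (16.8%) at an adjusted p below 0.05, which is 30.9% in either direction, with a median log2 difference of -0.01. The labelled cell types were set against their markers: all 7 epithelial markers were measured, of which Krt8, Krt18 and Krt19 were higher in stem cells, with Krt19 at 1.83 ± 0.32 (adjusted p = 0.011), and Epcam was lower, at -1.23 ± 0.19 (adjusted p = 0.0083). Of the others, 6 of 7 basal epithelial markers were higher in stem cells, the keratin gene Krt14 among them. Of 11 acinar cell markers, 8 were lower in stem cells, and the summed acinar level relative to the 75th percentile was 5088 and 4780 in stem cells against 9887 and 11051 in non-stem cell epithelia. In such sorted bulk samples, fewer cells of a type and less RNA per cell cannot be told apart.

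Of the 7 members, 5 were well above background and could be tested. Lin28a was 27.4-fold lower in stem cells and Ezh2 was 1.84-fold higher, while Myc, Bmi1 and Sall4 did not pass the test, and Mycn and Esrrb were not above background on any array. The 2 calls among 5 tested members stand beside a background of 30.9% of all genes called, and 5 genes are too few to read that share as a property of the set. The groups did not overlap for 4 of the 5 members, against 71% of all genes tested. When each probe was fitted on its own, 2 of the 6 tested member probes passed, those of Lin28a and Ezh2, against 28.8% of all probes tested.

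**Figure D1:**
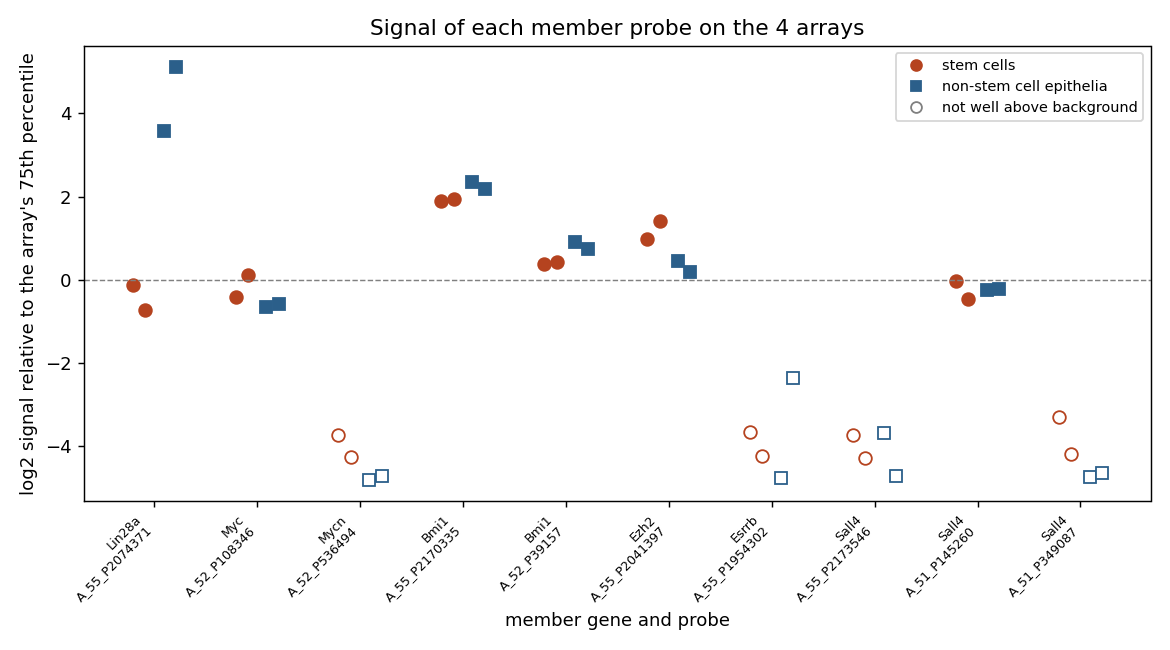
The plot shows the log2 signal of each of the 10 member probes relative to the array's 75th percentile, with 1 point per array, stem cells and non-stem cell epithelia in different colours. The Lin28a probe has the widest gap between the groups, and the probes of Mycn, Esrrb and 2 of the 3 of Sall4 lie among the dimmest signals.

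Lin28a, the RNA-binding regulator of let-7, was low in stem cells and high in non-stem cell epithelia. Its log2 level was -0.12 and -0.74 in stem cells replicates 1 and 2, and 3.58 and 5.12 in non-stem cell epithelia replicates 1 and 2. Both stem cell arrays lay far below both non-stem arrays, and the probe was well above background on all 4. The unscaled signal was 28.0 and 25.9 in stem cells against 894 and 2193 in non-stem cell epithelia, so the order of the groups does not rest on the scaling. The group means of -0.43 ± 0.44 and 4.35 ± 1.09 (SD, n = 2 arrays each) differed by -4.78 ± 0.52 (SE), with an adjusted p of 0.0027 by limma and a 95% interval from -6.08 to -3.47. Only 62 of the 17362 genes tested, 0.357%, had a larger absolute difference, and 49 had a lower value.

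The non-stem arrays differed from each other at Lin28a more than they did at most genes. Replicate 2 was 2.92-fold above replicate 1, a gap of 1.54 on the log2 scale, and 77 of 17362 genes (0.443%) had a gap at least as wide between those 2 arrays. The size of the difference therefore moves with the array used: it was -4.01 without non-stem replicate 2 and -5.55 without non-stem replicate 1. The call held in each of those fits, and the difference was larger than the gap between the non-stem arrays.

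Markers of other cell types also moved between the groups. The summed erythroid marker level was 43.6 and 44.5 in stem cells against 181 and 225 in non-stem cell epithelia, with 4 of 4 tested genes lower in stem cells. The summed mast cell marker level was 3.50 and 3.84 against 5.38 and 13.8, and it followed Mrgprb1 alone, which was at 1.49 and 3.55 in non-stem cell epithelia and not above background in stem cells. The other tested mast cell marker, Tpsb2, went the opposite way, with a difference of 0.63 (adjusted p = 0.045), and Cma1, Cpa3 and Mcpt4 were not above background on any array. Both sums and the acinar one were higher in non-stem cell epithelia and highest in replicate 2, where Lin28a was highest. The nerve and Schwann cell sum had the same order, at 5.75 and 5.01 in stem cells against 11.8 and 15.8. Of its 2 tested genes, 1 was higher and 1 lower in stem cells. The fibroblast, endothelial and white blood cell sums went the other way. The fibroblast sum was 21.0 and 22.8 in stem cells against 8.95 and 9.44, with Dcn higher by 2.14 ± 0.16 (adjusted p = 8.2e-04) and Col1a1 not above background on any array. Of the 2 fibroblast genes tested, the other did not pass. With normexp background correction 1 of the 2 was higher and 1 lower. The endothelial sum was 15.9 and 13.2 against 10.3 and 11.3, with Cldn5 higher and Cdh5, Emcn and Tie1 not above background on any array. The sum followed mainly Kdr, the brightest of the 3 tested, whose difference of 0.40 did not pass (adjusted p = 0.14 by limma). Cldn5 was dim and above background on 3 of the 4 arrays. Pecam1, the third, differed by -0.51 and did not pass (adjusted p = 0.37). The white blood cell sum was 85.9 and 66.0 against 41.6 and 47.1, with Itgam higher by 0.86 ± 0.19 (adjusted p = 0.025), while Ptprc and 3 more of the 7 were not above background on any array. The 2 other tested genes of that list did not pass. The part of these markers in the Lin28a result was not tested.

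Probes close to Lin28a on chromosome 4 did not share its difference in full. Dhdds, a subunit of the enzyme that makes dolichol precursors, lies on the same strand within 35 kb, and its log2 level was 1.74 and 1.84 in stem cells against 3.14 and 2.99 in non-stem cell epithelia. The difference of Dhdds was -1.27 ± 0.16 (adjusted p = 0.0040 by limma), and its 2 probes gave similar differences. Hmgn2, a nucleosome-binding protein gene on the same strand, had 3.52 and 3.65 in stem cells against 3.60 and 3.68 in non-stem cell epithelia, a difference of -0.05 (adjusted p = 0.81). A probe for the opposite strand 0.993 kb from the Lin28a probe was not above background on any array. The longest run of bases that the Lin28a probe shares with any other probe of the array is 14, with a probe for Chm.

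**Figure D2:**
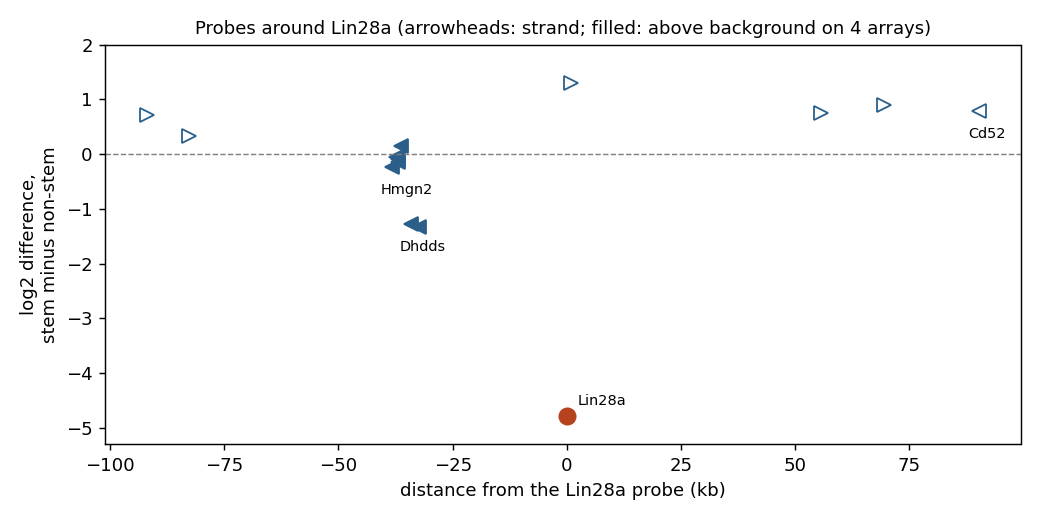
The plot shows the log2 difference, stem cells minus non-stem cell epithelia, of the probes within 100 kb of the Lin28a probe against their distance from it in kb, with arrowheads for the strand and filled symbols for probes above background on all 4 arrays. Lin28a stands at -4.78, the Dhdds probes near -1.3 and the Hmgn2 probes near 0.

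The genes whose 4 values, each centred on its own mean, lay nearest to those of Lin28a were Mirt1, Fam174b and Pglyrp1, at Euclidean distances of 0.437, 0.844 and 0.910 on the log2 scale over the 4 arrays. Mirt1, a long non-coding RNA gene, had -3.72 and -4.25 in stem cells, where it was not above background, and -0.28 and 1.05 in non-stem cell epithelia. Pglyrp1, a peptidoglycan recognition protein of innate immunity, had 3.19 and 3.26 in stem cells against 7.69 and 8.15 in non-stem cell epithelia. All 3 genes had their highest value in non-stem replicate 2, as Lin28a did, which choosing them by nearness to Lin28a favours.

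Partners of Lin28a in the let-7 pathway were set beside it. Of 18 listed genes, 12 were tested, of which 1 was higher, 0 were lower and the median log2 difference was 0.17. The share called was 8.33%, against 30.9% of all genes tested. The gene that rose, Tut4 (Zcchc11 on the array), encodes the uridylyltransferase that LIN28A recruits to let-7 precursors. Its log2 level was 2.32 and 2.45 in stem cells against 1.26 and 0.76 in non-stem cell epithelia, a difference of 1.37 ± 0.21 (adjusted p = 0.0081 by limma). Its call was lost without non-stem replicate 2 (1.12, adjusted p = 0.055) and without the filter on dim probes (adjusted p = 0.067). Dicer1, the nuclease that cuts the precursors, differed by 0.23 and did not pass (adjusted p = 0.35). Lin28b, the paralog of Lin28a, Trim71, a let-7 target first described in the worm, and the RNA-binding protein genes Igf2bp1, Igf2bp2 and Igf2bp3 were not above background on any array, and the let-7 target Hmga2 was above it on 1.

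Myc RNA was measured on all 4 arrays and did not pass the test. Its log2 level was -0.42 and 0.12 in stem cells against -0.65 and -0.59 in non-stem cell epithelia, the mean of 2 spots of the probe on each array. Both stem cell arrays lay above both non-stem arrays, and the gap between the stem cell arrays was wider than that between the nearest arrays of the 2 groups. The difference was 0.47 ± 0.22 (SE, n = 2 arrays per group), with an adjusted p of 0.16 by limma and a 95% interval from -0.08 to 1.01. Without stem replicate 1 it was 0.73 (adjusted p = 0.020) and without stem replicate 2 it was 0.20, so the value rests on which stem cell array is used. The unscaled signals of 22.8 and 46.9 in stem cells against 47.8 and 41.9 in non-stem cell epithelia overlapped, and without scaling the difference was -0.45. The nearest profiles to Myc were those of Sall2, Tnfaip8l1 and Ece1, at distances of 0.0546 to 0.0665.

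Mycn, the paralog of Myc that is used in embryonic and neural progenitors, was too dim on all 4 arrays to be called above background, with signals of 2.31 and 2.24 in stem cells against 2.67 and 2.38 in non-stem cell epithelia at chr12:12943193-12943252 (mm9, minus strand). No fold is given for it. Mycl, the other paralog, had log2 levels of -0.38 and -0.81 in stem cells against -1.56 and -3.34 in non-stem cell epithelia, where it was above background on 1 of the 2 arrays, and its difference of 1.85 ± 0.57 did not pass (adjusted p = 0.058 by limma).

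The genes that surround MYC in its dimerisation network showed calls in both directions. Of 11 tested, 1 was higher, 2 were lower and 8 did not pass, with a median log2 difference of 0.08. The share called was 27.3%, against 30.9% of all genes tested. For Max, the obligate partner of MYC, the difference of 0.43 did not pass (adjusted p = 0.089). Mnt, a MAX partner that represses E-box genes, had 3.62 and 3.81 against 3.12 and 3.07, a rise of 0.63 ± 0.16 (adjusted p = 0.035). The genes lower in stem cells belong to the MLX branch of the network, which senses glucose through MLXIP and related proteins. Mlx was at 0.09 and 0.34 against 1.80 and 2.09, a difference of -1.73 ± 0.19 (adjusted p = 0.0027), and Mlxip at -0.86 and -0.03 against 1.05 and 0.96, a difference of -1.45 ± 0.29 (adjusted p = 0.017). For Mnt, Mlx and Mlxip the groups did not overlap, as for 71% of all genes tested, and all adjusted values are by limma. Mlx passed also without the filter and without any single array, whereas Mnt and Mlxip lost their calls without the filter and without either non-stem array, and Mnt also without stem replicate 2. The sign of the Mnt difference turned when the arrays were not scaled.

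Genes that MYC is known to activate in ribosome assembly and growth were called in both directions, as genes were across the array. In stem cells 5 of the 23 tested were higher and 4 were lower, with a median of 0.14. The share called was 39.1%, against 30.9% of all genes tested (14.1% higher and 16.8% lower). Srm, which makes spermidine, had the largest difference of the list, at 2.32 and 2.35 in stem cells against 4.14 and 4.45 in non-stem cell epithelia, or -1.97 ± 0.18 (adjusted p = 0.0014 by limma). Odc1, the enzyme before it in polyamine synthesis, was also among the 4 that fell. Tfrc, the transferrin receptor, was at 1.17 and 1.37 against 0.36 and 0.05, a rise of 1.07 ± 0.19 (adjusted p = 0.011), but its other probe above background differed by 0.15. Cdk4, a kinase of the G1 phase, rose by 0.91 ± 0.16 (adjusted p = 0.011), and Nop58, a core protein of small nucleolar ribonucleoproteins, by 0.78 ± 0.16 (adjusted p = 0.020). The counts depend on the arrays and the processing. Without non-stem replicate 1, 1 gene was higher and 1 lower, and without non-stem replicate 2 or without the filter 0 were higher and 1 was lower, while Srm passed in each of these fits. With normexp background correction 1 was higher and 7 were lower, and without scaling the differences of Cdk4 and Nop58 changed sign.

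Bmi1, the PRC1 subunit, did not pass the test on either of its probes. The brighter probe, at chr2:18607531-18607590 (mm9, plus strand), had log2 levels of 1.90 and 1.95 in stem cells against 2.36 and 2.18 in non-stem cell epithelia. The other, at chr2:18607987-18608046, had 0.38 and 0.43 against 0.90 and 0.74. On each probe both stem cell arrays lay below both non-stem arrays. The difference of the brighter probe was -0.35 ± 0.16 (SE, n = 2 arrays per group), with an adjusted p of 0.15 by limma and a 95% interval from -0.74 to 0.05, and that of the other was -0.42 ± 0.16 (adjusted p = 0.11 over all probes). With normexp background correction the difference of Bmi1 was -0.50 and passed (adjusted p = 0.018). The nearest profiles were those of Pink1, Otulin and Pigp, at distances of 0.0250 to 0.0304.

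Of the other PRC1 subunits, 16 were tested, of which 2 were higher, 3 were lower and 11 did not pass, with a median of -0.01. The share called was 31.25%, against 30.9% of all genes tested. Cbx2, a chromodomain subunit that reads H3K27me3, was at -0.83 and -0.96 in stem cells against -2.04 and -2.02 in non-stem cell epithelia, a rise of 1.14 ± 0.15 (adjusted p = 0.0054 by limma). Cbx6, another chromodomain subunit, rose by 0.75 ± 0.16 (adjusted p = 0.021) on its brightest probe, but its other probes differed by 0.09 and -0.10. Ring1, one of the ubiquitin ligases of the complex, differed by -0.80 ± 0.22 (adjusted p = 0.040), while Rnf2, the other, differed by 0.19 (adjusted p = 0.43). Pcgf1, which takes the place of BMI1 in a variant complex, differed by -0.73 ± 0.18 (adjusted p = 0.033) and Scmh1 by -0.72 ± 0.17 (adjusted p = 0.031). With arrays scaled to the 75th percentile over probes detected on all arrays, 3 genes of the list were higher and 0 were lower. Without the filter on dim probes 0 passed in either direction. The direction of Cbx6 turned without scaling, and no more than 1 gene of the list passed in the fits that left out 1 non-stem array. At the locus that BMI1 represses, Cdkn2a was not above background on any array, and its neighbour Cdkn2b, a cell cycle inhibitor, had -0.17 and -0.53 against -0.16 and -0.49, with overlapping groups and a difference of -0.03 (adjusted p = 0.93).

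Ezh2, the catalytic subunit of PRC2, was higher in stem cells. Its probe, at chr6:47480307-47480366 (mm9, minus strand), had log2 levels of 0.98 and 1.41 in stem cells against 0.45 and 0.19 in non-stem cell epithelia. Both stem cell arrays lay above both non-stem arrays after scaling, whereas the unscaled signals of 60.1 and 115 against 102 and 71.6 overlapped. The means of 1.20 ± 0.30 and 0.32 ± 0.18 (SD, n = 2 arrays each) differed by 0.88 ± 0.21 (SE), with an adjusted p of 0.029 by limma and a 95% interval from 0.35 to 1.41. The call is close to the threshold. The difference was 1.01 (adjusted p = 0.090) without non-stem replicate 1, 0.75 (adjusted p = 0.17) without non-stem replicate 2, and -0.04 without scaling, where the median of all genes moved by -0.92. The nearest profiles to Ezh2 were those of Trnp1, Tdp1 and Mbd5, at distances of 0.0592 to 0.0734.

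Of 12 PRC2 subunits and H3K27 demethylases tested beside EZH2, 1 was higher and 1 lower, with a median of 0.28. Against the 30.9% of all genes called, so short a list allows no reading of that share. Eed and Suz12, the core subunits without which EZH2 is inactive, differed by 0.13 (adjusted p = 0.60) and 0.04 (adjusted p = 0.89). Ezh1, the alternative catalytic subunit of resting cells, differed by -0.09 (adjusted p = 0.73), and Aebp2, an accessory subunit, by 0.74 (adjusted p = 0.051). These values are those of the brightest probes. The other probes of Ezh1 differed by -0.33 and 0.31 and that of Aebp2 by 1.10, all above background on 4 arrays. Kdm6b, a demethylase that removes H3K27me3, was at 2.90 and 3.02 in stem cells against 2.07 and 2.15 in non-stem cell epithelia, a rise of 0.85 ± 0.15 (adjusted p = 0.013 by limma) whose sign turned without scaling. Phf1, an accessory subunit, was lower, with a difference of -0.63 ± 0.15 (adjusted p = 0.029). Neither passed when a non-stem array was left out.

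Ezh2 is a known target of E2F factors in dividing cells, so a list of cell cycle genes was set beside it. Of 24 listed genes, 19 were tested. Cdk1, Bub1, Aurkb and Ccne2 were not above background on any array, and Top2a was above it on 1. In stem cells 16 of the 19 tested were higher and 0 were lower, with a median of 1.67. The share called was 84.2%, against 30.9% of all genes tested. The summed level was 80.8 and 84.2 in stem cells against 31.6 and 29.6 in non-stem cell epithelia. Mki67, a marker of dividing cells, was at 2.52 and 2.41 in stem cells against -0.05 and 0.09 in non-stem cell epithelia, a rise of 2.45 ± 0.16 (adjusted p = 5.6e-04 by limma). Uhrf1, which couples DNA methylation to replication, rose by 2.44 ± 0.15 and Birc5, a mitotic survivin protein, by 2.23 ± 0.17. The other probes of Uhrf1 and Birc5 were not above background on any array. Ccnb1, a mitotic cyclin, was not above background in non-stem cell epithelia and its stem cell level was at least 5.19-fold higher. Its other probes were not above background on any array. Ccnb1 and Plk1, both counted among the 16, passed the filter through the stem cell arrays alone, so their calls are no independent support. The bound for Ccnb1 sets the stem cell mean against the lowest signal well above background. The part of the cell cycle genes in the Ezh2 result was not tested. Without the filter on dim probes 11 of 24 were higher and 0 were lower. Without scaling 8 of the 19 were higher and 0 were lower, with a median of 0.76. Between 10 and 18 of the 19 were higher when single arrays were left out, and 13 with normexp background correction.

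Promoters from RefSeq (GRCm38.p6, 250 bases before to 50 after the start) were available for 5 of the 7 members, and 3 of them are shown because they hold a motif searched for. The motifs, each on both strands, were the E-box CACGTG bound by MYC and MAX and the E2F sites TTTGGCGC and TTTCGCGC. CACGTG stands in 7.15% of 32851 promoters, TTTGGCGC in 0.514%, TTTCGCGC in 0.323%, and either of the E2F forms in 0.813%. Of the 21 promoters found for cell cycle genes, 5 held an E2F form (23.8%). In the Ezh2 promoter TTTGGCGC starts 3 bases after the start site, in capitals in chr6:47595001-47595120 (minus strand).
Ezh2: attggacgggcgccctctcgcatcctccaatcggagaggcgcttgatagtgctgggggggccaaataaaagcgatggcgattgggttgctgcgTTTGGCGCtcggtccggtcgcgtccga
In the Mycn promoter it stands at 183 and 168 bases before the start, in capitals in chr12:12941927-12942046 (minus strand), and TTTCGCGC on the other strand, 179 before the start, overlaps the first of them.
Mycn: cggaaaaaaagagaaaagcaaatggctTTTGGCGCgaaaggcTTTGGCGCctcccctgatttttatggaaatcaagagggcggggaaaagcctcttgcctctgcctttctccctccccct
In the Bmi1 promoter CACGTG stands 215 bases before the start, in capitals in chr2:18676768-18676887 (plus strand).
Bmi1: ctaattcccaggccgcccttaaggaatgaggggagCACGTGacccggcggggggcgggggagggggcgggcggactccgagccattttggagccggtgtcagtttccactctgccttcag
These matches describe the letters of the promoters and are not measured binding. Ezh2 was higher in stem cells and Mycn was below background although both hold TTTGGCGC, and Bmi1, with its E-box, did not pass the test.

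Sall4, a zinc finger factor of embryonic stem cells, did not pass the test on the 1 probe that could be measured. That probe had log2 levels of -0.02 and -0.47 in stem cells against -0.25 and -0.22 in non-stem cell epithelia. The non-stem values lay between those of the stem cell arrays, so the groups overlapped. The difference was -0.01 ± 0.20 (SE, n = 2 arrays per group), with an adjusted p of 0.98 by limma and a 95% interval from -0.51 to 0.49. The unscaled signals were at most 31.3 in stem cells and at least 54.1 in non-stem cell epithelia, and without scaling the difference was -0.93 (adjusted p = 0.046), next to the shift of -0.92 of all genes. The 2 other Sall4 probes, the second one printed above and one at chr2:168574333-168574392, were not above background on any array. The latter is assigned to the same 3 transcripts as the measured probe, so the probes of Sall4 disagree on whether the RNA is present. The measured probe shares a run of 18 bases with a probe for Olfr571, the longest such run among the member probes. The nearest profiles were those of Plxna1, Baz1b and Lelp1, at distances of 0.0428 to 0.0657.

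Esrrb, an orphan nuclear receptor of the embryonic stem cell network, stayed below the call of well above background on all 4 arrays. Its probe, at chr12:87862509-87862568 (mm9, plus strand), gave signals of 2.41 and 2.31 in stem cells against 2.77 and 12.2 in non-stem cell epithelia. The value of non-stem replicate 2 stood apart from the other 3 and was still not called above background, so no fold is given. Of the related ESRR and SALL genes, 3 were tested and none passed by limma, with a median of 0.13. Esrra, the family member of oxidative tissues, differed by 0.04 (adjusted p = 0.85) and Sall2 by 0.45 (adjusted p = 0.20), while Sall1 and Sall3 were not above background on any array.

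Other factors of the pluripotency network were set beside the members. In stem cells 7 of the 15 tested were higher and 3 were lower, with a median of 0.59. The share called was 66.7%, against 30.9% of all genes tested. Sox2, a factor of embryonic and salivary progenitors, had the largest difference, at -1.79 and -1.68 in stem cells, where 1 of the 2 arrays was above background, and 3.13 and 3.05 in non-stem cell epithelia. The difference of Sox2 was -4.82 ± 0.15 (adjusted p = 1.8e-04 by limma), a size close to that of Lin28a. Tdgf1, a co-receptor of Nodal, rose by 1.65 ± 0.34 (adjusted p = 0.019), but its 2 other probes were not above background. Tfcp2l1, a transcription factor of the naive state and of ductal epithelia, was at 6.94 and 6.81 against 5.54 and 5.33, a rise of 1.44 ± 0.16 (adjusted p = 0.0032), and Klf4, a differentiation factor of surface epithelia as well as a reprogramming factor, rose by 1.15 ± 0.19 (adjusted p = 0.0091). Pou5f1 was above background on 1 array and was not tested. Without non-stem replicate 1, 2 genes of the list were higher and 3 lower, and without non-stem replicate 2, 1 was higher and 1 lower.

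**Figure D3:**
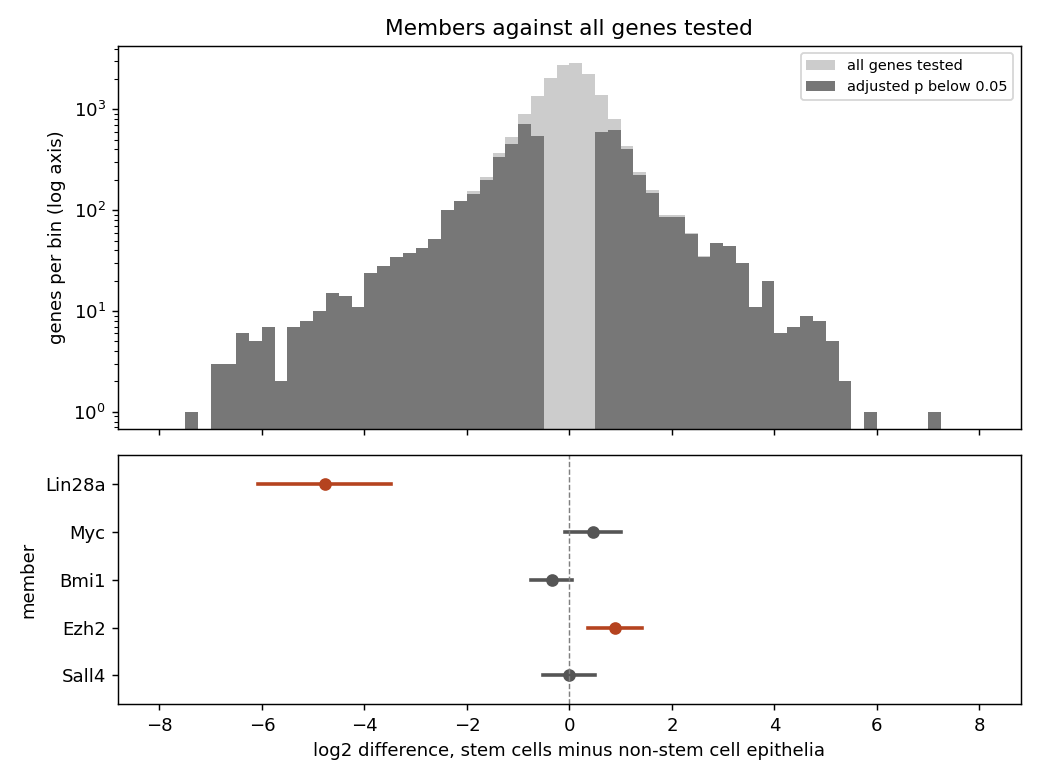
The upper panel is a histogram of the log2 difference, stem cells minus non-stem cell epithelia, of all 17362 genes tested, on a log count axis. Genes with an adjusted p below 0.05 by limma are overlaid in a darker shade. The lower panel gives the difference of each of the 5 tested members with its 95% interval. The interval of Lin28a lies wholly below 0 and that of Ezh2 wholly above, while those of Myc, Bmi1 and Sall4 include 0.

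**Figure D4:**
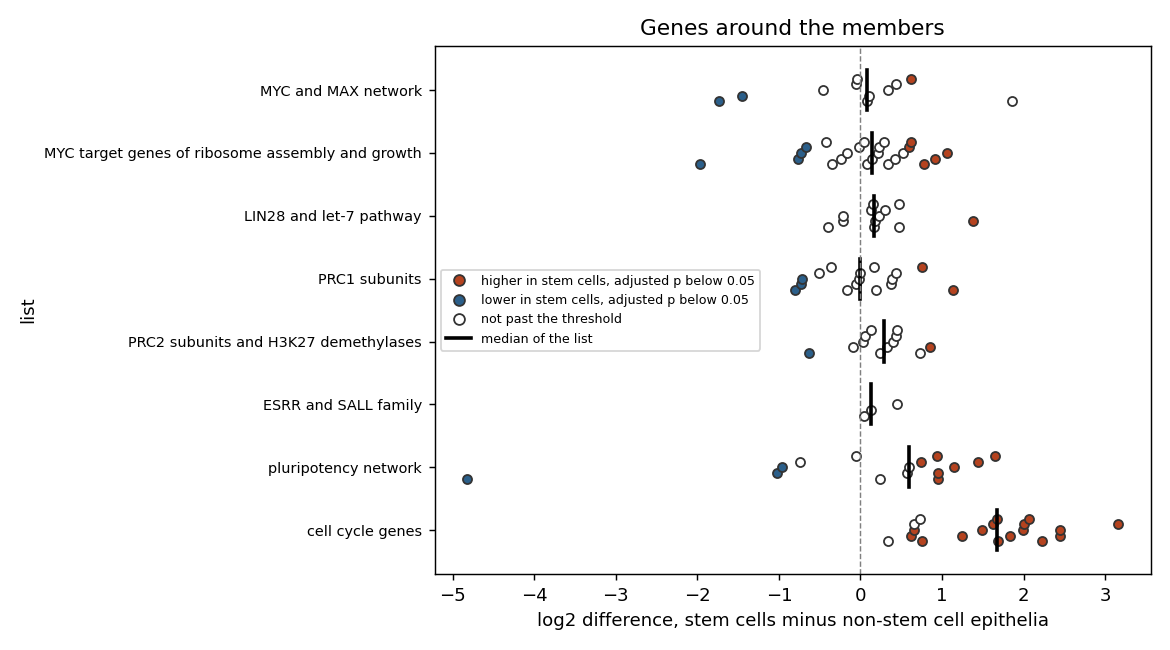
The plot shows the log2 difference, stem cells minus non-stem cell epithelia, of each tested gene in the lists around the members, 1 line per list. The cell cycle genes lie to the right of 0 with a median of 1.67, whereas the MYC, LIN28 and Polycomb lists spread around 0 with medians from -0.01 to 0.28.

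**Figure D5:**
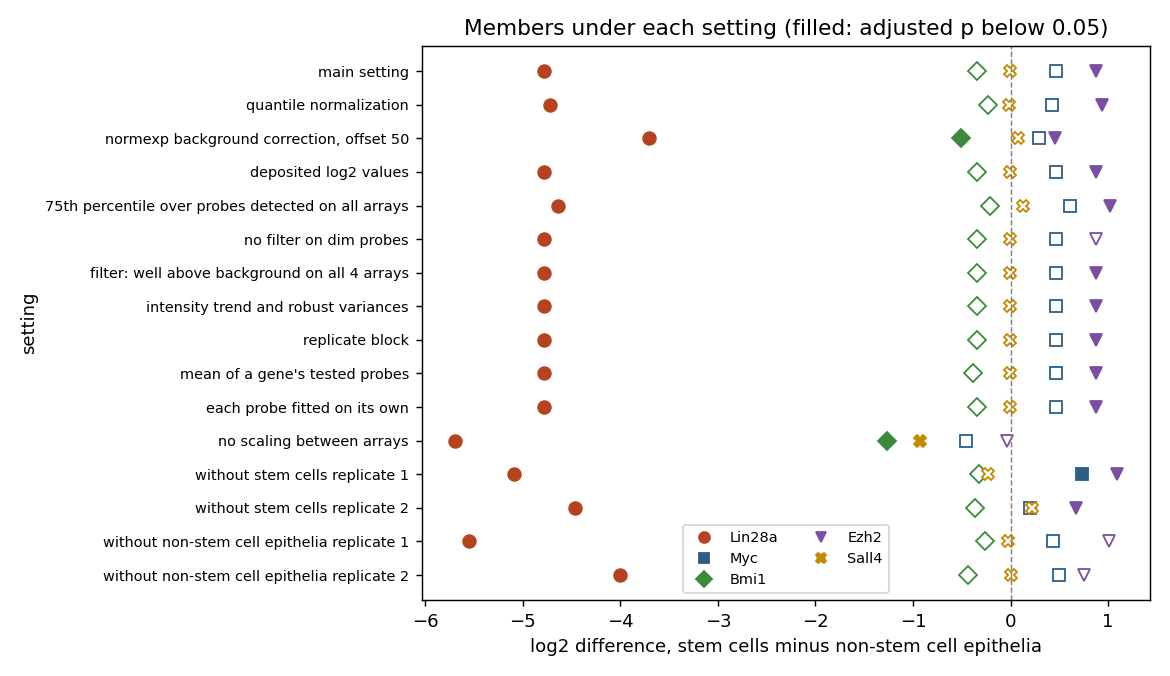
The plot shows the log2 difference of each tested member under every processing setting, with filled symbols where the adjusted p was below 0.05. Lin28a stays between -5.70 without scaling and -3.70 with normexp background correction and is filled throughout, while the symbols of Ezh2, Myc, Bmi1 and Sall4 change between filled and open or cross 0.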

How the data were processed

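RNA of sorted mouse submandibular gland cells was read on 4 one-colour Agilent arrays, 2 per group. Spot intensity, linear and background-corrected, was taken from the deposited scanner files, which Agilent Feature Extraction 10.7.3.1 wrote per the file headers. The submitters' processing notes name 9.1, a difference that was not resolved. The deposited series table holds the authors' log2 values, and between any pair of arrays its differences matched the scaled scanner values with a correlation of 1. Its direction and scale are therefore settled, and the baseline on which each probe was centred is unknown. Its column medians were -0.28 and -0.55 for stem cells and -0.83 and -0.76 for non-stem cell epithelia.

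Control spots and outlier flags were left out, spots of a probe were averaged, and log2 signals were set relative to each array's 75th percentile over probes. Probes well above background on at least 2 of 4 arrays were tested, with the brightest probe for each gene. RefSeq accessions named 26582 probes, and 29099 kept the array's name. Probe coordinates are those of the array files (mm9), and promoters and microRNAs come from RefSeq tables (GRCm38.p6). Groups were compared in R 4.3.3 by the moderated two-sided test of limma 3.58.1 (lmFit, eBayes), which had 5.53 degrees of freedom. P-values were adjusted by Benjamini-Hochberg over every gene tested, at a threshold of 0.05. The fit was tested on simulated data, but the outcome is not given here and no conclusion is drawn from it. Precision is limited by how few arrays there are.

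Genes named are the members, all genes past the threshold in a list with 6 or fewer of them and otherwise the 4 with the largest difference, and the 3 nearest profiles of each tested member. Odc1, family partners and neighbours of Lin28a were named beyond that, Odc1 after its value was seen. The members and lists were chosen with earlier results of these data known. Alternatives were quantile normalization, normexp (offset of 50), another percentile, the authors' deposited log2 table, no filter, a stricter filter, an intensity trend, a replicate block, the mean of probes and leaving out each array. Whether the replicate numbers pair the arrays is not known, and the main fit used no pairing. Deviations of same-numbered arrays correlated at -0.103. With 2 arrays per group the crossed pairing gives 0.103 by construction, so this value cannot settle the question.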

Additional observations from a re-analysis of the deposited data

How the results depend on the processing

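Lin28a kept its direction and its call under every alternative run, from -5.70 to -3.70, and from -5.55 to -4.01 when single arrays were left out. Ezh2 lost its call without the filter on dim probes (0.88, adjusted p = 0.12) and ranged from 0.67 to 1.09 when single arrays were left out, losing it without either non-stem array. Myc ranged from 0.20 to 0.73 in those fits, Bmi1 from -0.44 to -0.26 and Sall4 from -0.23 to 0.21. With normexp, Bmi1 was -0.50 and passed, and Sall4 was 0.071, while the percentile over probes detected on all arrays put Sall4 at 0.13. Without scaling, an alternative chosen after seeing the data as were the list recounts, Myc was -0.45, Ezh2 -0.039, Bmi1 -1.27 (adjusted p = 0.0065) and Sall4 -0.93. Against the main scaling the median of all genes moved by -0.25 with normexp, 0.14 with the detected percentile and -0.92 without scaling. The 5373 calls (2454 higher, 2919 lower) became 1606 (841 and 765) without the filter and 9333 (432 and 8901) without scaling, and normexp gave 4590 lower. Leaving out single arrays gave 1591 to 6439 calls, 688 to 2875 higher and 903 to 3564 lower, the fewest without non-stem replicate 2 and 2204 without non-stem replicate 1. Those fits assume that the lone array varies like the other group. The share of calls that were higher was 45.7%, against 29.2% with normexp, 59.3% with the detected percentile and 4.63% without scaling. The replicate number as a block gave 5332 calls (2367 higher, 2965 lower) and changed no member's call, with Ezh2 at 0.88 (adjusted p = 0.021). The crossed pairing, also chosen after seeing the data, gave 4540 calls. Of the 48 list and member genes called, 14 were called without the filter, 35 with normexp, 22 without scaling, where 12 changed sign, and 23 and 15 without non-stem replicates 1 and 2.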
